A study of Oryza sativa with 36 samples.

Results

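Rice protects itself against fungi with labdane-related diterpenoid phytoalexins, the momilactones, phytocassanes and oryzalexins, and 10 of the 57194 probe sets tested on the Affymetrix Rice Genome Array stood for genes that make them. The members were CPS2 and CPS4, each by a fixed probe set, and every probe set that the platform annotation assigns to a gene with the RefSeq symbol or synonym CYP99A3, CYP99A2, KSL4, KSL7, KSL8, KSL10, CYP76M7 or CYP76M8. Of these 10 genes, 9 had a probe set, KSL7 had 2 of them, and KSL8 matched none and was not analysed here. The rule uses names and, for CPS2 and CPS4, fixed probe sets, and it was written with earlier results of these data known. Further probe sets of CPS2 and CPS4 were not searched for.

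The RNA was that of 2 cm panicles from 6 varieties raised in cement enclosed plots, either drought-stressed, with the water drained at the later tillering stage, or well watered, with 3 arrays for each variety and treatment and 36 arrays in all. MILT1444, EMATAYIN, DOURADOAGULHA and HUHAN3 are classed as drought tolerant, and KHAUMEO and NIPPONBARE as drought sensitive. By the study's methods DOURADOAGULHA and KHAUMEO are indica varieties and the other 4 are japonica, and the probes were designed on the NIPPONBARE genome, so a sequence difference of another variety under a probe and a lower transcript level cannot be told apart. The methods describe the 3 arrays of a group as independent experiments, while the labels give only replicate numbers, so the spread may be partly technical. The deposited values are linear intensities, and the medians of the arrays lay between 55.81 and 68.85.

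In the phytoalexin pathway, a copalyl diphosphate synthase closes the first rings of geranylgeranyl diphosphate, a kaurene synthase-like enzyme (KSL) completes the diterpene skeleton, and cytochromes P450 add oxygen. The ent form of copalyl diphosphate, from CPS2, leads to phytocassanes and most oryzalexins, whereas the syn form, from CPS4, leads to momilactones among other products. The same precursor also feeds gibberellin synthesis through the separate enzymes CPS1 and KS1. The phytoalexin genes are best known for their induction in leaves and cultured cells by fungi, fungal elicitors, jasmonate and ultraviolet light, and several of them lie side by side in gene clusters.

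The cluster order was still visible in the RefSeq annotation ASM3414082v1. On chromosome 2 the named phytoalexin genes came in the order CYP76M5, CYP76M8, KSL7, CYP71Z6, CYP71Z7, CPS2, KSL5, KSL6 and CYP76M6. On chromosome 4 the order was CPS4, CYP99A3, MAS, KSL4 and CYP99A2. Genes without such a name lay between them, among them protein-coding LOC4329723 between CYP76M8 and KSL7 and LOC4335092 between CYP99A3 and MAS. LOC4329723 had a mean intensity of 9.05. Its drought change, averaged over the 6 varieties, was -0.11 on the log2 scale (limma, adjusted p = 0.435). KSL10 is on chromosome 12. The synonym CYP76M7 belongs in this annotation to a gene on chromosome 6, away from the CYP76M genes of chromosome 2, so the probe set given here as CYP76M7 may not measure the phytocassane hydroxylase known by that name.

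The members were dim in young panicles and differed in intensity by less than 2-fold between drought-stressed and well watered plants. Of the 10 probe sets, 8 had a mean below the lowest array median, and the medians of the members and of the 64 reporter control probe sets, which carry vector and reporter gene sequences that rice RNA should not contain, were 23.0 and 17.7. No group means of a member were 2-fold apart, either between the treatments in a variety or between a pair of well watered varieties. The comparison with the reporter controls was added after the data were seen.

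The brightest member was CYP76M8, a P450 of phytocassane and oryzalexin synthesis, with a geometric mean intensity of 102.7 over the 36 arrays, and none of the 64 reporter controls was brighter. CYP99A3, a P450 of momilactone synthesis, had a mean of 80.7, with 3 reporter controls brighter. These were the only members above the median of all probe sets, at the 60.3rd and 56.1st percentile. The probe set of CYP76M8 is of a type that can share probes with other genes (suffix x), and CYP99A3 and CYP99A2 are close paralogs, so both signals may include related P450 transcripts. CYP99A2 was the next brightest at 31.9, with 16 reporter controls above it.

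The diterpene synthases were dimmer. CPS2, the ent-copalyl diphosphate synthase, had a mean of 25.6 and CPS4, the syn-copalyl diphosphate synthase, a mean of 24.3, and 25 of the 64 reporter controls were brighter than either. KSL10, which makes an oryzalexin precursor, had a mean of 19.5 with 29 reporter controls brighter. KSL4, which makes the momilactone precursor, had a mean of 12.3 with 41 brighter. The 2 probe sets of KSL7, the enzyme of the phytocassane precursor, had means of 21.6 and 6.66, with 28 and 54 reporter controls brighter. CYP76M7 had a mean of 17.8, with 32 of the controls brighter and 32 dimmer. For the 8 dim probe sets the intensity therefore lay among values that sequences foreign to rice also gave, and no detection calls were used. CYP99A3 lay in the upper part of that range. Intensity depends on the probes as well as on the transcript, so these values do not rank the genes by transcript level.

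**Figure D1:**
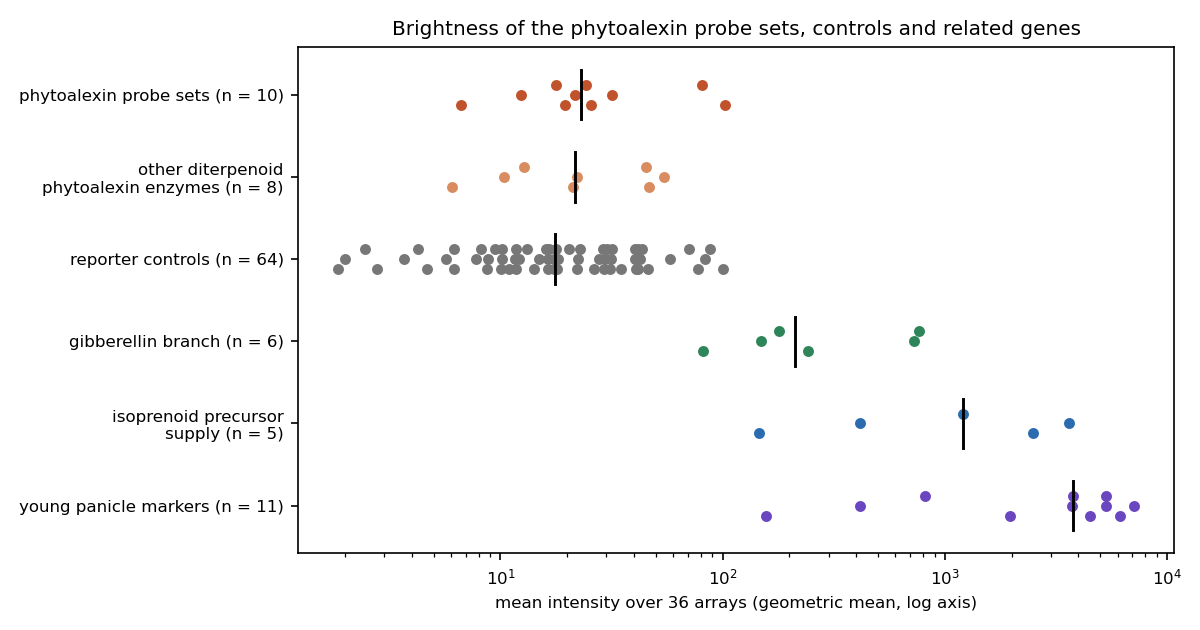
Mean intensity over 36 arrays (geometric mean, log axis) of the 10 phytoalexin probe sets, of 64 reporter controls and of genes from related lists, with 1 point per probe set and a bar at the median of each row. The phytoalexin probe sets lie between 6.66 and 102.7 and overlap the reporter controls, which lie between 1.86 and 100.7. The gibberellin branch lies between 81.5 and 765, and only its dimmest gene, KAO, lies within the range of the controls.

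CPS2 showed no change that held across the varieties. Its intensity over the 18 drought-stressed arrays lay between 19.7 and 36.98 with a median of 26.1, against 16.87 to 39.49 with a median of 24.6 over the 18 well watered arrays. It was 19.7, 28.33 and 26.82 in drought-stressed MILT1444, against 16.87, 20.21 and 20.94 in well watered MILT1444, and 27.61, 21.19 and 28.98 in drought-stressed NIPPONBARE, against 22.02, 35.42 and 39.49 in well watered NIPPONBARE. The arrays of the treatments overlapped in each of the 6 varieties. The average drought change, drought-stressed minus well watered over the 6 varieties, was 0.05 on the log2 scale (SE 0.098, limma, adjusted p = 0.711), with a 95% interval from -0.15 to 0.25. The mean was higher in 4 varieties and lower in 2.

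CPS4 overlapped between the treatments in all varieties but MILT1444. Over the drought-stressed arrays it lay between 18.76 and 30.38 with a median of 23.8, against 16.72 to 30.67 with a median of 25.1 over the well watered arrays. In MILT1444 the drought-stressed arrays all lay above the well watered ones, at 24.56, 30.38 and 24.13 against 22.37, 22.34 and 16.72, and there the change was 0.37 (SE 0.148, limma, adjusted p = 0.173). In the other 5 varieties the drought-stressed mean was the lower. The average change was -0.08 (limma, adjusted p = 0.288), with a 95% interval from -0.21 to 0.04. Scaling each array to the actin gene ACT1 turned this uncalled value to 0.04.

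KSL10 was the member with the largest average drought change, a lower level in drought-stressed panicles. It was 16.5, 16.32 and 10.49 in drought-stressed MILT1444, against 22.96, 30.51 and 18.19 in well watered MILT1444. In DOURADOAGULHA it was 22.83, 16.26 and 19.81 in drought-stressed panicles, against 27.89, 28.76 and 28.63 in well watered ones, and in KHAUMEO 21.72, 18.08 and 15.44 against 24.29, 30.41 and 25.3. In these 3 varieties every drought-stressed array lay below every well watered array. EMATAYIN had 13.29, 19.08 and 20.23 in drought-stressed panicles and 17.78, 23.14 and 16.26 in well watered panicles. HUHAN3 had 16.07, 18.84 and 15.5 in drought-stressed panicles and 24.18, 19.08 and 14.34 in well watered panicles, and NIPPONBARE had 16.55, 19.6 and 13.99 against 17.86, 21.74 and 20.68. The arrays of the treatments overlapped in these last 3 varieties, although the drought-stressed mean was the lower in each.

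The average change of KSL10 was -0.40 (SE 0.086, limma, adjusted p = 6.0e-04), a ratio of 0.760 with a 95% interval from 0.672 to 0.858, so that the interval did not reach 2-fold. The 6 single changes ran from -0.72 in MILT1444 to -0.13 in EMATAYIN, and none passed an adjusted p of 0.05 (lowest 0.0515, MILT1444). The reporter controls, measured in the same way, had average changes from -0.74 to 0.54 with a median of -0.10, and 4 of the 64 lay below the value of KSL10. In a whole panicle, fewer expressing cells and less RNA per cell cannot be told apart.

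CYP76M7 was the member with the largest average change upward. It was 23.55, 30.67 and 26.61 in drought-stressed DOURADOAGULHA, against 18.8, 19.77 and 15.09 in well watered DOURADOAGULHA. In MILT1444 it was 19.82, 19.07 and 19.83 in drought-stressed panicles against 12.3, 15.28 and 17.68 in well watered ones, and in EMATAYIN 19.18, 19.48 and 18.43 against 14.23, 16.54 and 18.06. In these 3 varieties all drought-stressed arrays lay above all well watered arrays. In KHAUMEO, HUHAN3 and NIPPONBARE the arrays overlapped, with drought-stressed means of 21.2, 15.5 and 17.3 against well watered means of 19.5, 14.6 and 15.5. The average change was 0.25 (SE 0.077, limma, adjusted p = 0.0109), with a 95% interval from 0.09 to 0.41 and a higher mean in 6 of 6 varieties. Of the 64 reporter controls, 4 had a larger average change.

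CYP99A3 was slightly lower in drought-stressed panicles. Over the drought-stressed arrays it lay between 62.58 and 95.49 with a median of 74.0, against 67.69 to 114.86 with a median of 86.7 over the well watered arrays. HUHAN3 had 78.54, 74.68 and 71.5 in drought-stressed panicles against 85.14, 90.75 and 99.12 in well watered ones, and was the only variety whose arrays did not overlap. NIPPONBARE had 70.98, 88.37 and 71.84 in drought-stressed panicles against 87.93, 114.86 and 90.5. The average change was -0.17 (SE 0.054, limma, adjusted p = 0.0124), with a lower mean in 5 of 6 varieties and a slightly higher one in DOURADOAGULHA. Scaled to ACT1 it was -0.05 with an adjusted p of 0.593, and 21 of the 64 reporter controls had a lower average change than CYP99A3.

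Its paralog CYP99A2 had an average change of 0.02 (limma, adjusted p = 0.825), and the arrays of the treatments overlapped in all 6 varieties. CYP76M8 had an average change of -0.01 (limma, adjusted p = 0.817) with a 95% interval from -0.09 to 0.07. Of all the members it had the narrowest interval. The probe sets of KSL7 had average changes of -0.03 and 0.11, and neither passed the test (limma, adjusted p = 0.853 and 0.432).

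KSL4 stood out in NIPPONBARE alone. It was 12.88, 17.47 and 13.63 in drought-stressed NIPPONBARE, against 7.07, 8.69 and 12.87 in well watered NIPPONBARE, so that the highest well watered array lay just below the lowest drought-stressed one. The change was 0.65 (SE 0.216, limma, adjusted p = 0.0496). This pass was lost in 30 of 45 alternatives, 25 of them single arrays left out. Without well watered replicate 1 the change was 0.46, and without drought-stressed replicate 2 it was 0.52. The average change of KSL4 over the 6 varieties was 0.15 (limma, adjusted p = 0.181). That the changes of KSL4 differ between the varieties was not shown (F test, adjusted p = 0.807).

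**Figure D2:**
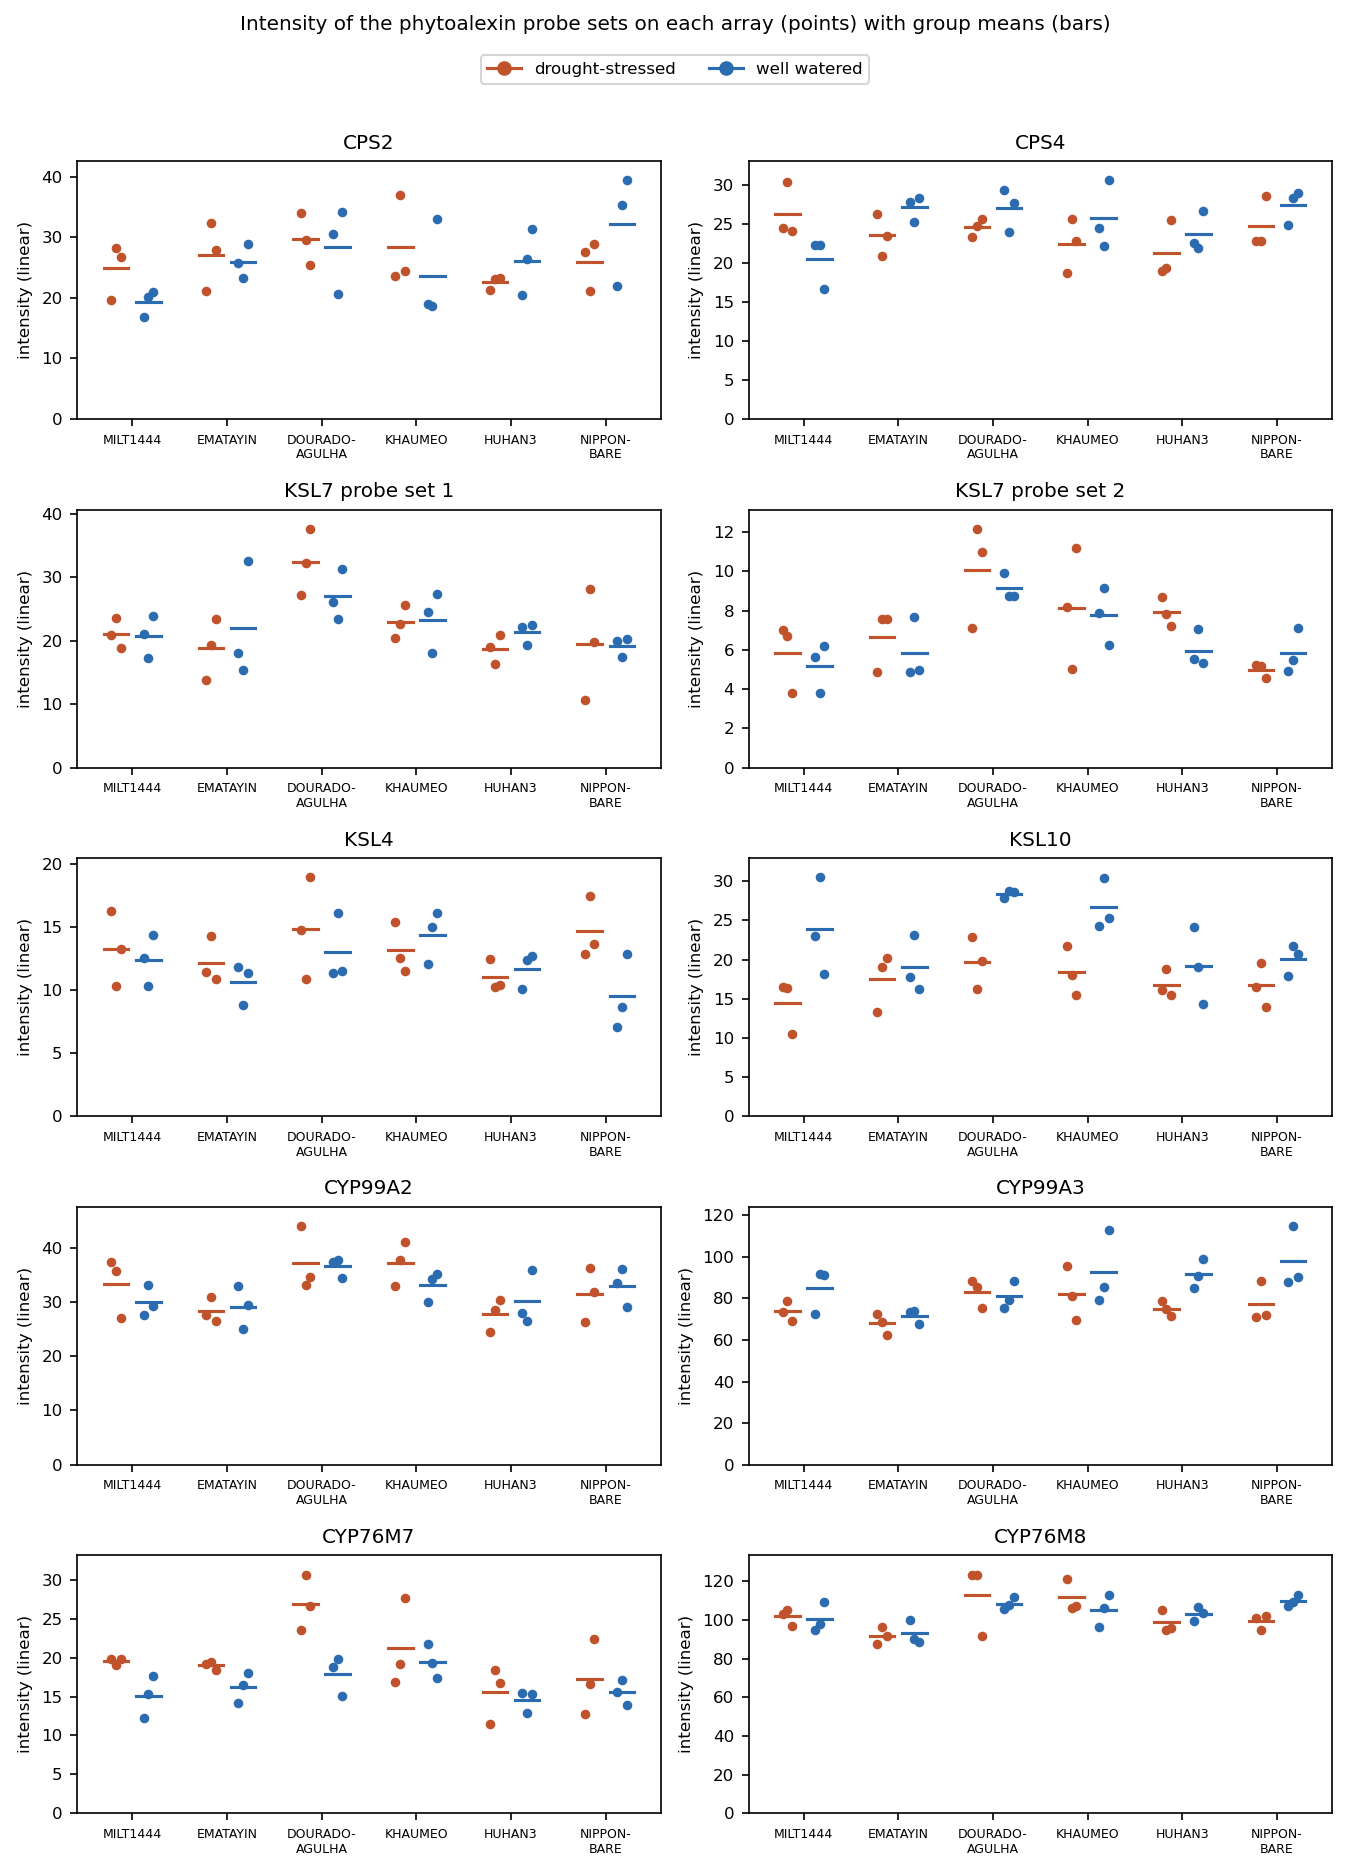
Linear intensity on each array (points, 3 per group) and group means (bars) of the 10 phytoalexin probe sets in 6 varieties, with drought-stressed arrays left of well watered ones. KSL10 is the member whose drought-stressed arrays lie below the well watered arrays in 3 varieties, and CYP76M7 is the one whose drought-stressed arrays lie above them in 3 varieties.

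Calls required a 2-fold difference as well as a p of 0.05 or less after Benjamini-Hochberg adjustment. Over 10 probe sets and 6 varieties, 0 of 60 drought changes were called by limma, while 0.448% of all probe set by variety tests were. By the adjusted p alone 1 of 60 passed, KSL4 in NIPPONBARE, against 3.9% of all such tests and 11% of those in NIPPONBARE, and 9 of 60 had an unadjusted p under 0.05, against 19.3%. The 95% intervals excluded a 2-fold change of intensity in 58 of the 60, and the other 2 were KSL4 in NIPPONBARE and KSL10 in MILT1444. The share of such intervals over all probe sets was not computed. For the dim probe sets, whose intensity lay among that of the reporter controls, the intervals do not exclude a 2-fold change of the transcript.

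In the average over the varieties 0 of 10 members were called by limma, against 0.383% of all probe sets. By the adjusted p alone, and equally at an unadjusted p under 0.05, 3 passed, CYP76M7 higher and KSL10 and CYP99A3 lower. Of all probe sets 42.1% passed by the adjusted p, 20.6% higher and 21.5% lower, and 49.7% by the unadjusted p, so 3 of 10 is near the background. The median average change was 0.00 over the 10 members and -0.01 over all probe sets. Arrays of the treatments did not overlap in 11 of 60 cases, 6 above and 5 below, against 23.9% of all probe set by variety cases.

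**Figure D3:**
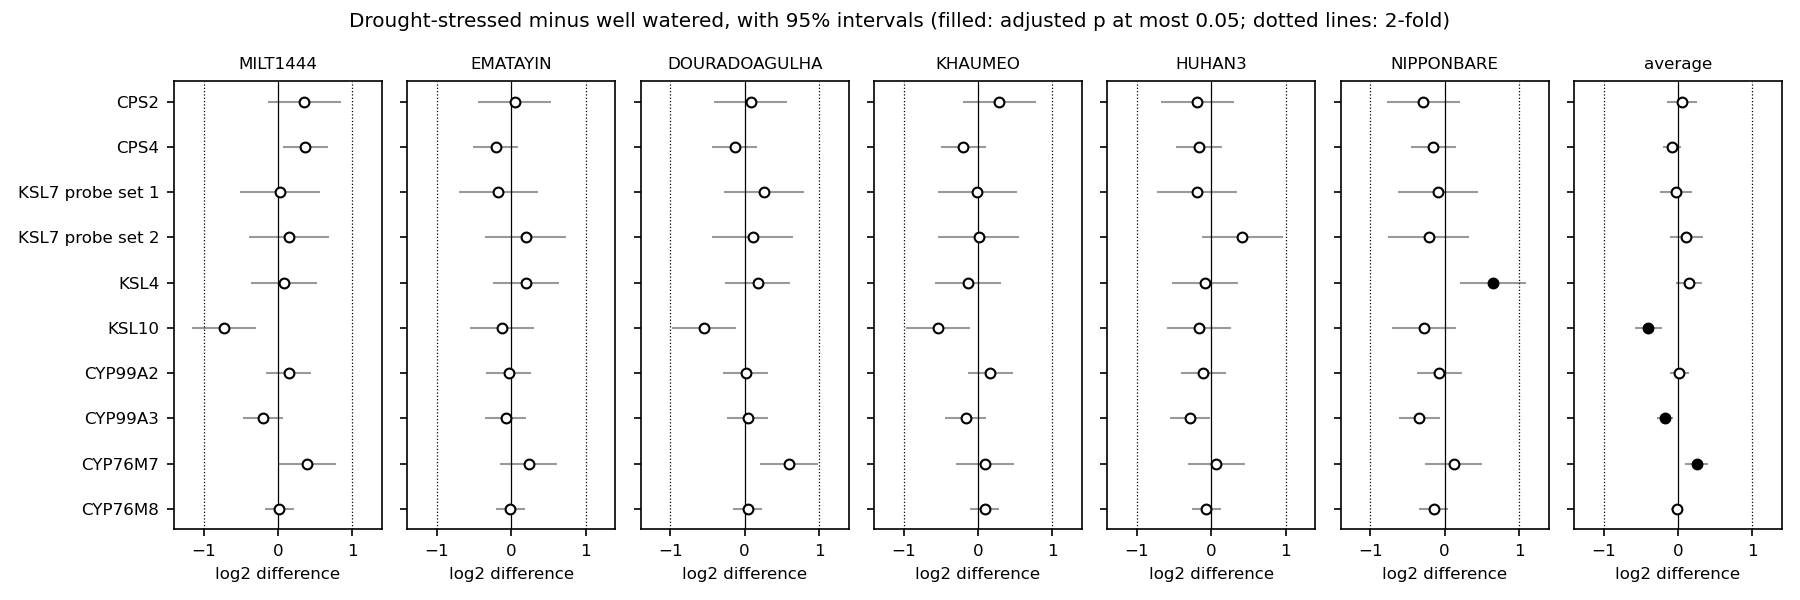
Drought-stressed minus well watered (log2 difference, points, with 95% intervals) for the 10 phytoalexin probe sets in each of 6 varieties and on average. Filled points passed an adjusted p of 0.05 and dotted lines mark a 2-fold difference. Only KSL4 in NIPPONBARE is filled within a variety, and KSL10, CYP99A3 and CYP76M7 are filled in the average, all short of 2-fold.

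A test of whether the 6 drought changes differed from each other passed for 0 of 10 members (limma F test, 0 at an unadjusted p under 0.05), with a lowest adjusted p of 0.719 for CPS4. Of all probe sets 0.0542% passed and 7.32% had an unadjusted p under 0.05, so differences of response between varieties were rarely detected with 3 arrays a group.

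The second question was whether the varieties differed without drought. Across the 6 well watered varieties, the range of the group means was widest for the dimmer probe set of KSL7, at 0.84 on the log2 scale, followed by CPS2 at 0.70, KSL4 at 0.63 and KSL10 at 0.60. It was narrowest for CYP76M8, at 0.24. By the F test 0 of 10 members passed the adjusted p (limma, 4 at an unadjusted p under 0.05), against 34% of all probe sets, and against 14.5% that also had a 2-fold range. Of the probe sets dimmer than the median, as most members were, 18.8% passed and 9.09% also had a 2-fold range. The count of members depended on the scaling. It was 2 of 10 after quantile normalization (KSL10 and CYP76M8), against 35.8% of all probe sets, and 3 of 10 both with arrays centred on their median and with arrays scaled to ACT1 (KSL10, KSL4 and the dimmer KSL7 probe set), against 39.1% and 35.4%. KSL10 passed in 9 of 44 alternatives, with a lowest adjusted p of 0.0111. The reporter controls had ranges from 0.14 to 1.82 with a median of 0.40, and the median range of the members was 0.46.

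CPS2 was highest in well watered NIPPONBARE, with a geometric mean of 31.3, followed by DOURADOAGULHA at 27.8, EMATAYIN at 25.9, HUHAN3 at 25.7, KHAUMEO at 22.8 and MILT1444 at 19.3. In drought-stressed panicles the order was another, with DOURADOAGULHA at 29.5 the highest and HUHAN3 at 22.6 the lowest. CPS4 in well watered panicles varied only by 0.43 on the log2 scale between its highest and lowest variety. Neighbours in the order of well watered varieties passed the adjusted p in 0 of 50 such pairs of the 10 members.

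Of 150 pairwise differences between well watered varieties, 0 were called (limma, 25 at an unadjusted p under 0.05), against 4.82% of all such tests. By the adjusted p alone 3 passed, against 13.2%, and each set the highest variety of a member against its lowest. The dimmer probe set of KSL7 was lower in MILT1444 than in DOURADOAGULHA by a log2 difference of -0.84 (limma, adjusted p = 0.0305), at 5.63, 3.79 and 6.18 against 9.94, 8.76 and 8.73. CYP99A3 was lower in EMATAYIN than in NIPPONBARE by a log2 difference of -0.44 (limma, adjusted p = 0.0205), at 73.3, 73.8 and 67.69 against 87.93, 114.86 and 90.5. KSL4 was higher in KHAUMEO than in NIPPONBARE by 0.63 (limma, adjusted p = 0.0316), at 12.07, 15.02 and 16.14 against 7.07, 8.69 and 12.87, which overlap.

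In drought-stressed panicles 2 of 10 members differed between the varieties by the adjusted p alone, against 32.9% of all probe sets, and none reached a 2-fold range as 14.5% of all did. Among probe sets dimmer than the median these shares were 21.8% and 10.2%. The count by the adjusted p was 5 of 10 after quantile normalization, median centring or scaling to ACT1, against 37%, 39% and 42.7% of all probe sets. CYP76M7 had a range of 0.82 (limma F test, adjusted p = 0.0178), with DOURADOAGULHA highest and HUHAN3 lowest. This pass was lost without drought-stressed DOURADOAGULHA replicate 2 (range 0.72, adjusted p = 0.0947) or replicate 3 (0.82, 0.0522), and when the drought-stressed arrays were fitted alone (adjusted p = 0.0756). The dimmer probe set of KSL7 had a range of 0.98 (limma F test, adjusted p = 0.0386), with DOURADOAGULHA highest, at 7.11, 12.18 and 10.97, and NIPPONBARE lowest, at 5.24, 5.17 and 4.55. It lost its pass in 11 of 44 alternatives, 8 of them single arrays left out. The highest adjusted p among these was 0.124, without drought-stressed DOURADOAGULHA replicate 2. The brighter KSL7 probe set was also highest in drought-stressed DOURADOAGULHA, at 27.26, 32.24 and 37.68, but did not pass (adjusted p = 0.0829).

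The members were alike to varying degrees. Over their 45 pairs, Pearson's r of the 12 group means lay between -0.17 and 0.87 with a median of 0.34, and r of the deviations of single arrays from their group means lay between -0.32 and 0.50 with a median of 0.09. The group means of CYP99A2 and CYP76M8 (r = 0.87) and of the brighter KSL7 probe set and CYP99A2 (r = 0.76) were the most alike, and the same was not computed for other probe sets. These are descriptions only, since the points share arrays and varieties. The named genes with the most similar group means were OsPP2C29 for CPS2 (r = 0.70), CAB2R, a chlorophyll-binding protein of green tissue, for CPS4 (r = 0.77) and RA5 for CYP99A3 (r = 0.78), each the best of 454 candidates over 12 group means. The next were OsUEL-2 and AO-4 for CPS2, RCABP69 and GOS5 for CPS4, and ILI6 and BASS2 for CYP99A3. The group means of CPS2, CPS4 and CYP99A3 had SDs of only 0.19, 0.14 and 0.16 on the log2 scale.

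The other measured phytoalexin enzymes were as dim. Of 8 further measured genes, the synthase KSL5, the P450s CYP71Z6, CYP71Z7, CYP76M5, CYP76M6, CYP701A8 and CYP701A9, and MAS, the dehydrogenase that completes momilactone A, 0 were higher and 1 was lower in drought-stressed panicles by the adjusted p, against 20.6% and 21.5% of all probe sets. That was KSL5 of the chromosome 2 cluster, with an average change of -0.28 (limma, adjusted p = 0.0026), or -0.16 with an adjusted p of 0.0982 when scaled to ACT1. Their median intensity was 21.7. CYP701A8, a P450 related to the kaurene oxidases, was the only one of the 8 that differed between varieties, with a range of 0.84 in well watered panicles (limma F test, adjusted p = 0.049) and of 1.01 in drought-stressed panicles (adjusted p = 0.0216). Of all probe sets 34% and 32.9% passed these tests, and of those dimmer than the median 18.8% and 21.8%. KSL5 and CYP701A8 are named after their values were seen.

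The measured genes of the gibberellin branch from the same precursor gave mostly brighter signals, and most of them were slightly higher in drought-stressed panicles. Of these 6 genes, 5 were higher in drought-stressed panicles by the adjusted p, where 20.6% of all probe sets were, and none reached 2-fold. Other genes of the branch were not measured here. Among probe sets brighter than the median, as all 6 were, 29.4% were higher. KS1, the kaurene synthase, was 841.51, 905.76 and 893.84 in drought-stressed NIPPONBARE against 600.02, 689.68 and 758.35 in well watered NIPPONBARE, and its average change was 0.37 (limma, adjusted p = 3.7e-06). CPS1, the copalyl diphosphate synthase of this branch, was 374.11, 344.0 and 300.43 in drought-stressed NIPPONBARE against 213.77, 224.77 and 249.44 in well watered NIPPONBARE, and its average change was 0.32 (limma, adjusted p = 0.00495). CPS1 and KS1 were chosen after their values were seen, as the counterparts of the CPS and KSL members. The kaurenoic acid oxidase KAO had an average change of 0.40, the gibberellin oxidase GA20OX3 0.31 and the kaurene oxidase KO2 0.25, of which KO2 missed the threshold after quantile normalization (adjusted p = 0.0712). GA20OX2 had -0.15 and did not pass, but after quantile normalization it was lower, at -0.22 (adjusted p = 0.042). Of the 4 green tissue markers RCA was also higher in drought-stressed panicles, at 0.28 (limma, adjusted p = 0.0115), and the other 3 did not pass. Of the 11 panicle markers MADS14 and MADS4 were higher, at 0.15 and 0.13 (limma, adjusted p = 0.0182 and 0.00857), and 9 did not pass. The part of RCA, MADS14 and MADS4 in the gibberellin values was not tested.

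Genes of this branch also differed between well watered varieties. KO2 had a range of 2.38 in well watered panicles, with 48.12, 49.81 and 39.6 in EMATAYIN against 254.5, 281.16 and 185.63 in NIPPONBARE. The probe set used for KO2, the brighter of 2, also has the suffix x and can share probes with other genes. KAO had a range of 1.63 and was lowest in DOURADOAGULHA, at 28.27, 35.52 and 33.04. GA20OX2, the gene behind the semidwarf habit of many modern rice varieties, had a range of 1.62. The difference between the branches was not tested, and dim probe sets passed less often in general. Of the probe sets dimmer than the median 9.09% passed the F test with a 2-fold range in well watered panicles, against 20.0% of the brighter ones.

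**Figure D4:**
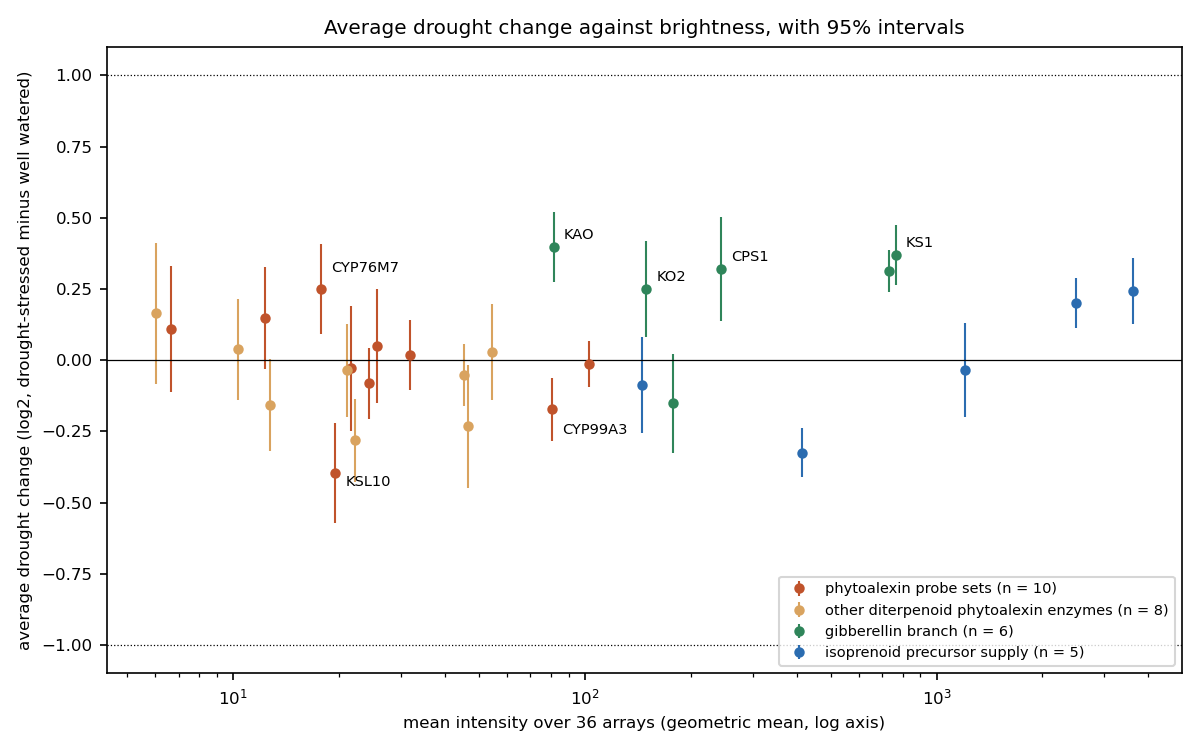
Average drought change (log2, drought-stressed minus well watered, with 95% intervals) against mean intensity (log axis) for the phytoalexin probe sets, other phytoalexin enzymes, the gibberellin branch and precursor supply. The phytoalexin probe sets scatter around 0 between -0.40 and 0.25 at low intensity, while 5 of the 6 gibberellin genes lie above 0 at higher intensity.

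Of 5 genes that supply the plastid isoprenoid precursor, 2 were higher in drought-stressed panicles by the adjusted p, DXR by 0.20 and ISPH by 0.24 on the log2 scale, and 1 was lower, ISPF, at -0.32, counts near the 20.6% higher and 21.5% lower of all probe sets. None of the 5 differed between well watered varieties by the adjusted p (limma F test, 1 at an unadjusted p under 0.05), against 34% of all probe sets. Among 5 regulators, CEBIP, the receptor that binds fungal chitin, was higher at 0.36, and WRKY76, a transcription factor that represses defence genes, was lower at -0.23, which missed the threshold when scaled to ACT1 (adjusted p = 0.287). These counts, 1 of 5 higher and 1 of 5 lower, are near the 20.6% and 21.5% of all probe sets. BZIP79, the bZIP factor also called TGAP1 that activates phytoalexin genes, had a range of 1.55 between well watered varieties, with 157.95, 152.7 and 197.37 in DOURADOAGULHA against 334.58, 604.62 and 596.14 in HUHAN3. Of the 5 regulators 1 passed the well watered F test with a 2-fold range, against 14.5% of all probe sets.

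Of 9 other phytoalexin and defence genes 0 were higher and 0 were lower on average (limma, 0 at an unadjusted p under 0.05), against 20.6% and 21.5% of all probe sets. After quantile normalization CHS1, at -0.29, and JAR1, at -0.18, passed as lower (adjusted p = 0.0213 and 0.0449), and scaled to ACT1 NH1, AOC and CYP71P1 passed as higher, at 0.19, 0.16 and 0.29. CHS1, JAR1, NH1 and AOC are named after their values were seen. PBZ1, a pathogenesis-related protein, had a range of 2.96 between well watered varieties, with 71.63, 65.48 and 62.3 in KHAUMEO against 707.63, 505.21 and 381.25 in NIPPONBARE, and CYP71P1, the P450 of serotonin synthesis, had a range of 1.73. Of these 9 genes 2 passed the well watered F test with a 2-fold range. Of all probe sets 14.5% did so, and 20.0% of those brighter than the median, to which 2 of 9 is near.

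Some genes around the clusters also differed between well watered varieties. Among the 15 genes on either side of KSL4, 10 that are no members had a probe set, and 5 of them had a range of at least 2-fold in well watered panicles that passed the F test, LOC4335079 (2.41), LOC9272088 (2.36), LOC4335089 (2.08), LOC4335086 (1.72) and LOC4335099 (1.60). LOC4335089 is annotated as the actin-related protein ARP9. Around KSL7 it was 3 of 14, LOC4329717 (1.63), LOC4329734 (1.31) and LOC4329732 (1.29). Of all probe sets 14.5% did so, and 20.0% of those brighter than the median, to which 3 of 14 is near. The 14 include the phytoalexin enzymes CYP76M5, CYP71Z6, CYP71Z7, KSL5 and CYP76M6, and the 10 include MAS. None of these enzymes had a 2-fold range, and the counts without them were not computed. No test set the genes around the clusters against the members.

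The labelled tissue carried its markers. All 11 MADS-box and DL genes of the young panicle had mean intensities between 157 and 7118. Of 4 green tissue markers, CAB2R had a mean of 6002, RBCS 1742 and RCA 263, and these 3 differed between varieties by at least 2-fold, as 14.5% of all probe sets did, while RBCS1 was at 6.93. The sum of the 4 group means lay between 5120 and 12031 in drought-stressed panicles and between 6572 and 12454 in well watered panicles over the 6 varieties, and its part in the values of the members, CPS4 included, was not tested. By the adjusted p, 2 of the 11 panicle markers and 1 of the 4 green tissue markers were higher on average in drought-stressed panicles and none was lower.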

How the data were processed

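Per the study's methods, the authors summarised the arrays by RMA in the affy package and used limma for testing, with versions not given in the sources used here. Values were deposited as linear intensities, the lowest 1.0 and the highest 21698.89, although RMA usually returns log2 values, and nothing states how they were turned back. Here log2 was taken without a pseudocount, 187 controls were set aside, and a model of 12 group means with default eBayes was fitted to the other 57194 probe sets (limma version 3.58.1, R version 4.3.3). Tables were handled with the data.table package (version 1.17.8), pandas 2.3.3 and numpy 2.4.6 under Python 3.11.15. P values were adjusted by Benjamini-Hochberg over all probe sets within a contrast or F test, and calls needed 2-fold and an adjusted p no higher than 0.05. The fit was tried on simulated data with independent noise and changes above 2-fold. No member reached a change of that size, so the trial does not bear on the small changes reported here. The number of arrays limits the precision.

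Probe sets were named from the platform annotation, which gives a single gene for 22436 of them, updated through RefSeq ASM3414082v1. Members and lists were chosen with earlier results of these data known. The lists were other diterpenoid phytoalexin enzymes, the gibberellin branch, plastid isoprenoid precursor supply, phytoalexin regulators, other phytoalexins and defence, young panicle markers and green tissue markers, and the brightest probe set stood for a gene. In this order 8 genes were measured from 30 listed names, 6 from 15, 5 from 22, 5 from 22, 9 from 28, 11 from 11 and 4 from 14. Names that matched no gene or several genes were left out, as were genes without a probe set, and several names could stand for the same gene. The lists therefore do not cover their pathways. Every member is named. List genes are named if called in the average response, in a variety or in the well watered F test, neighbours within 15 genes of KSL4 and KSL7 if their well watered range was at least 2-fold, and other genes by the highest r with CPS2, CPS4 or CYP99A3 among probe sets whose group means had an SD of at least 0.5. List genes named beyond this rule were chosen after their values were seen.

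Same-numbered arrays were not treated as pairs. The alternatives were an offset of 50 before log2, quantile normalization, centring on array medians, scaling to ACT1, probe sets brighter than the median, eBayes with trend and robust, replicate blocks, no fold threshold, fits of single varieties or treatments, and leaving out each array.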

Additional observations from a re-analysis of the deposited data

How the results depend on the processing

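The count of members called was 0 in each comparison, and it stayed at 0 under the other settings tried except these. With no fold threshold it was 1 for the drought changes of single varieties, 3 for the average change, 3 for the pairs of well watered varieties and 2 for the differences between drought-stressed varieties. For the last of these it was 1 with arrays centred on their median, 2 with arrays scaled to ACT1, and 0 to 1 when 1 array was left out, the 1 arising without DOURADOAGULHA drought-stressed replicate 1 or without NIPPONBARE drought-stressed replicate 2. With the replicate number as a block the counts of called members were 0. By the adjusted p alone, the number as a block over all groups gave a pass to KSL10 in MILT1444 (0.0267) and to the well watered range of KSL10 (0.0328) and the drought-stressed range of the brighter KSL7 probe set (0.0377), and ended that of KSL4 in NIPPONBARE (0.050). As a block within variety it gave 0.0430 for KSL10 in MILT1444 and 0.107 for KSL4 in NIPPONBARE. Drought-stressed and well watered arrays of a variety with the same number had deviations that correlated between -0.30 and 0.20, over 0.1 in 4 of 18 pairs. Of the 18, 6 correlated best with their own number, so the numbers were not taken as pairs. Same-numbered arrays of different varieties in a treatment correlated over 0.1 in 40 of 90 pairs, with a median of 0.08 and at most 0.47. Whether arrays of a number shared an effect was not tested, and the main fit has no block for it. Of 4038 recomputed single values, 3946 kept their side of the adjusted p, 45 lost it, 47 gained it and no passing value changed sign. The lower KSL10 and the higher CYP76M7 passed on average under all settings in which they were tested. KSL10 in MILT1444 gained a pass in 11 of 45 settings. The range of the dimmer KSL7 probe set over drought-stressed varieties lost its pass in 11 of 44 settings and that of CYP76M7 in 3 of 44. Scaling to ACT1, which was itself lower in drought-stressed panicles at -0.13, moved the median average change of all probe sets to 0.11, against -0.01 as deposited, and gave KSL4 an average of 0.27 (adjusted p = 0.0183). Among probe sets brighter than the median only CYP99A3 and CYP76M8 remained to be tested.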

Other observations

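The indica varieties DOURADOAGULHA and KHAUMEO had the 2 highest group means of the 6 varieties for 7 of the 10 phytoalexin probe sets in drought-stressed panicles and for 6 of 10 in well watered panicles, and the 2 lowest for none. In drought-stressed panicles these were CPS2, the brighter KSL7 probe set, KSL10, CYP99A2, CYP99A3, CYP76M7 and CYP76M8, and in well watered panicles both KSL7 probe sets, KSL4, KSL10, CYP99A2 and CYP76M7. Over all probe sets the same pair was highest for 20.7% in drought-stressed panicles and 14.4% in well watered panicles. It was lowest for 17.2% in drought-stressed panicles and 14.96% in well watered panicles. Among the 64 reporter controls the pair was highest for 13 and lowest for 1 in drought-stressed panicles, and highest for 13 and lowest for 2 in well watered panicles. This pattern was noticed after the values were seen, and the part of the background level of these arrays in it was not tested. By the F test and adjusted p, 0 of 10 members differed between well watered varieties and 2 of 10 between drought-stressed ones. Most of these orders are therefore of group means not shown to differ. The shares among dim probe sets alone were not computed.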
